A study of Mus musculus with 2 samples.

Results

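The mitochondrial carriers of the SLC25 family were examined in the fat around the heart, called pericardial adipose tissue (PAT), of P2Y4 KO and WT mice. Members were all genes of the deposited table whose symbol is Slc25a followed by a number, which gave 45 of the 23609 listed genes. All are annotated as protein-coding. The methods of the study place the P2Y4 KO mice on the C57BL/6J background and name no strain for the WT mice. The mice of the study were males and females of 11 to 13 weeks that underwent permanent ligation of the left anterior descending artery (LAD). PAT was taken 24 h after ligation, and the RNA of 3 P2Y4 KO mice and of 3 WT mice was pooled into 1 library each. The P2Y4 KO mice lack the UTP and ATP receptor P2Y4 in the whole body, and the labels do not give the sex of the pooled mice. With 1 library per genotype no difference has a replicate check, and no p-value is given.

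SLC25 carriers move metabolites across the inner mitochondrial membrane, which is otherwise closed to most charged molecules. They share a fold made of repeats of the same helix pair, and most work as exchangers that take one substrate in and another out. Carriers for ADP, ATP and phosphate feed ATP synthesis, while the citrate carrier sends carbon for fat synthesis to the cytosol. The carnitine carrier brings in fatty acids to be burned. Ucp1, the proton carrier of brown and beige adipocytes, belongs to the same family under another symbol and is not among the members.

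Levels are given as CPM, the deposited value divided by 20, since each library had been scaled to a total close to 20000000. The filter kept a gene whose CPM exceeded 0.5 in either library, which left 18474 genes in all and 42 of the 45 members. The ratio is that of P2Y4 KO over WT, and a gene was called higher where it reached 2 and lower where it was 0.5 or less. Of all genes past the filter, 8.75% were higher and 4.40% lower, the shares beside which each count of called genes below is to be read. Brackets after a ratio or a share hold its exact 95% interval, computed from reads, which covers counting error between these libraries only. The fitted depth was 14885825 reads in P2Y4 KO and 15508820 in WT PAT, and the members took 43212 and 38150 of these reads. The gene of the receptor, P2ry4, is not listed in the table, so that the genotype labels could not be checked against it. Adipocyte genes were well detected, with Adipoq at 333 CPM in P2Y4 KO and 124 CPM in WT PAT. Markers of several other cell types differed strongly between the libraries. Of 6 macrophage markers, 0 were higher or lower (3100 CPM in P2Y4 KO, 3272 CPM in WT). Of 14 cardiomyocyte markers in the table, 13 passed the filter and all of these were higher, with a summed level of 540 CPM in P2Y4 KO and 10.6 CPM in WT PAT. Myl2, which did not pass, and Csrp3, Pln, Nppa, Actn2 and Myl3 had at most 3 reads in WT PAT. The last 5, Myh6, Ryr2 and Tnnt2 passed through P2Y4 KO PAT alone, and a gene that passes in this way can only have a ratio above 1. All 8 markers of brown and beige adipocytes were higher, with 435 CPM in P2Y4 KO and 19.3 CPM in WT PAT. Otop1 and Ppargc1a among these, and Lep among the mature adipocyte markers, also passed through P2Y4 KO PAT alone. Of 10 mature adipocyte markers 6 were higher (6148 CPM in P2Y4 KO, 3420 CPM in WT), and of 8 mesothelial markers 7 were lower (643 CPM in P2Y4 KO, 2211 CPM in WT). Endothelial markers went both ways, with 4 of 6 higher and 1 lower (142 CPM in P2Y4 KO, 91.15 CPM in WT). Among 6 neutrophil markers 4 were lower (924 CPM in P2Y4 KO, 1165 CPM in WT). The part of these cell types in the results below was not tested, and in bulk tissue more cells of a type and more RNA per cell cannot be told apart.

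Most carriers, like most of all genes past the filter, lay within a factor of 2 between the genotypes, and a few were higher. Of the 42 members, 6 were higher in P2Y4 KO PAT (14.3%), against 8.75% of all genes past the filter. They included the dicarboxylate carrier Slc25a10, the citrate carrier Slc25a1, the ATP-Mg/phosphate carrier Slc25a23, and Slc25a34 and Slc25a48. Slc25a48 passed the filter through P2Y4 KO PAT alone (1.10 CPM, and 0.30 CPM in WT PAT). Slc25a18, a glutamate carrier, was the 1 member called lower (2.38%, against 4.40% of all genes), on 4 reads in P2Y4 KO and 9 in WT PAT. It passed the filter through WT PAT alone (0.60 CPM, and 0.30 CPM in P2Y4 KO PAT). With CPM above 0.5 in both libraries, 5 of 40 members were higher and 0 lower. The share of all genes on that filter was not computed. The other 35 of the 42 lay within a factor of 2, as did all genes past the filter but the 8.75% higher and 4.40% lower. Ratios between 0.8 and 1.25 were seen in 26 of the 42 (61.9%, against 54.9% of all genes). The median log2 ratio was 0.09 over the members and 0.00 over all genes. The lower and upper quartiles were -0.10 and 0.30 in log2 ratio for the members and -0.25 and 0.34 for all genes. A ratio above 1 was seen in 29 members (69.0%), against 49.5% of all genes. The summed level of the family was 2904 CPM in P2Y4 KO and 2461 CPM in WT PAT, a ratio of 1.18. Slc25a1 and Slc25a10 alone made up 51.6% of this surplus, and without them the sums were 2544 CPM in P2Y4 KO and 2329 CPM in WT PAT, a ratio of 1.09.

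**Figure D1:**
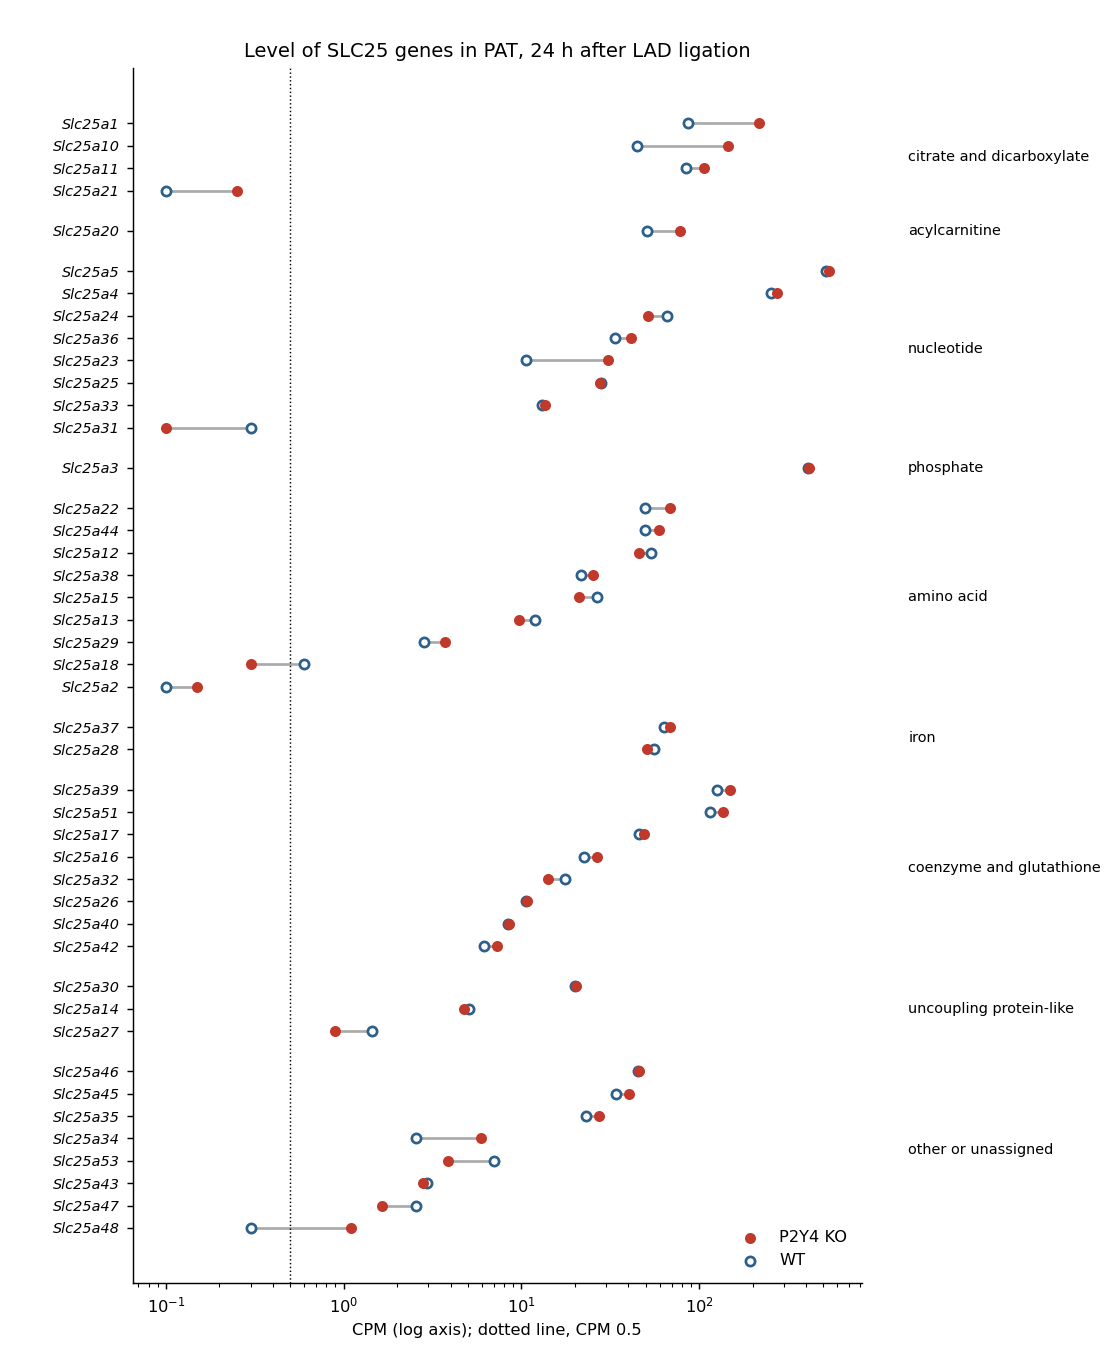
CPM of 44 SLC25 genes in P2Y4 KO PAT (filled) and WT PAT (open), 1 pooled library each, on a log axis and grouped by transported substrate. The symbols of most genes nearly touch, while Slc25a1, Slc25a10 and Slc25a23 lie apart at levels above 10 CPM.

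For 4 carriers the 300 bases around the transcription start (250 before and 50 after it) are printed from RefSeq on GRCm38.p6, 5′ to 3′ on the strand of the gene. They are the 3 members whose whole counting interval lay above a ratio of 2 (7.14%, against 3.05% of all genes), and Slc25a11, which shares their substrate class with Slc25a1 and Slc25a10 but stayed within a factor of 2. Capitals mark matches on either strand to the CCAAT box (CCAAT), the GC box (GGGCGG) and the E-box (CACGTG), which do not overlap each other here.
Slc25a1 (chr16:17928170-17928469, minus strand): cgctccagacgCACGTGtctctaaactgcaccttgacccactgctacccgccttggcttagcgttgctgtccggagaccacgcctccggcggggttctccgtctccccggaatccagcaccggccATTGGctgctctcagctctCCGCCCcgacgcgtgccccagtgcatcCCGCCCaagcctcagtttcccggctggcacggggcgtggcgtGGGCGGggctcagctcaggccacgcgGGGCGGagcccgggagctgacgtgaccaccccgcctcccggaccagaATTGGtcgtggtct
Slc25a10 (chr11:120491587-120491886, plus strand): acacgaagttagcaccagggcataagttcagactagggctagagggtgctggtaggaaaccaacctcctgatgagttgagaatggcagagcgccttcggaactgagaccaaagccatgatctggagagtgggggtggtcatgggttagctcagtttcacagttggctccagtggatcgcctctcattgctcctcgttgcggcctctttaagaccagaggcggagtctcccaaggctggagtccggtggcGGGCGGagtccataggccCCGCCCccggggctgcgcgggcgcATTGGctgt
Slc25a23 (chr17:57059814-57060113, minus strand): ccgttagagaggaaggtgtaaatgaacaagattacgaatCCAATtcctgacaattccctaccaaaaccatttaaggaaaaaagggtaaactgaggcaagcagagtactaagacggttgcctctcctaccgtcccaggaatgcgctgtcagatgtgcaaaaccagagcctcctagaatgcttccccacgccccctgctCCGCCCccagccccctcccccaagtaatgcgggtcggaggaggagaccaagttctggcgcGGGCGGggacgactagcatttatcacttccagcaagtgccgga
Slc25a11 (chr11:70646990-70647289, minus strand): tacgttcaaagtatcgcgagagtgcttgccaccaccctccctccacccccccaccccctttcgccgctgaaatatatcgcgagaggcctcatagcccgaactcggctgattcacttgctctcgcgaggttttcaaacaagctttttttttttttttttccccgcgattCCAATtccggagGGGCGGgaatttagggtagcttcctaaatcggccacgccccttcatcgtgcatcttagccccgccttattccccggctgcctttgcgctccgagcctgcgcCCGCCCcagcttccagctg
Each of the 4 windows holds at least 1 CCAAT box and at least 2 GC boxes, Slc25a11 included, and the E-box stands only in that of Slc25a1. A CCAAT box was found in 37.4% of all 32851 windows, a GC box in 35.7% and the E-box in 7.15%. Among the 35 members with a window, the first of which was read for each gene, the shares were 48.6%, 85.7% and 17.1%. Among the 11942 genes past the filter that have a window, they were 38.4%, 60.2% and 9.72%. The sterol regulatory element (TCACNCCAC), searched for in the same way, was found in the window of Slc25a18 alone among the members (1.24% of all windows). The motif of estrogen-related receptors (TCAAGGTCA, 0.423% of all windows) and the PPAR response element (0.0396%) were found in none of the 35, and at such shares 35 windows are too few to say whether the members differ. Such matches describe the letters of these windows and are not binding sites.

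Of the 4 carriers of citrate and dicarboxylates, 3 passed the filter, 2 were higher and 0 lower (8.75% and 4.40% of all genes), with a median log2 ratio of 1.31. Their summed level was 467 CPM in P2Y4 KO and 217 CPM in WT PAT, beside the 6148 and 3420 CPM of the mature adipocyte markers. The median log2 ratio of these 10 markers was 1.43, and the part of adipocyte content in the ratios of the carriers was not tested. Slc25a1 exports citrate from the matrix, the source of acetyl-CoA for fatty acid synthesis. Its gene (chromosome 16, 17925223 to 17928219, minus strand, GRCm38 and GENCODE M21) stood at 216 CPM (3213 reads) in P2Y4 KO and 86.8 CPM (1346 reads) in WT PAT. Its ratio was 2.49 (2.33 to 2.65). Slc25a10, which exchanges malate and succinate for phosphate and is abundant in white fat, is encoded on the plus strand of chromosome 11 between 120491840 and 120499187. It stood at 145 CPM (2152 reads) in P2Y4 KO and 44.9 CPM (696 reads) in WT PAT, a ratio of 3.22 (2.96 to 3.51). Exons of Gm11788 on the opposite strand cover 6.60% of its exon length. Gm11788 stood at 12.4 CPM in P2Y4 KO and 3.85 CPM in WT PAT, a ratio of 3.22 as well. The methods of the study name a stranded library kit, but whether reads were counted by strand is unknown here. Slc25a11, the oxoglutarate carrier of the malate-aspartate shuttle, had 106 CPM in P2Y4 KO and 84.8 CPM in WT PAT, a ratio of 1.25 (1.17 to 1.35). The oxodicarboxylate carrier Slc25a21 was at the limit of detection, with 3 reads in P2Y4 KO and 1 read in WT PAT. Together these 4 genes took 16.1% of the family's reads in P2Y4 KO PAT (15.7 to 16.4) and 8.80% in WT PAT (8.52 to 9.09).

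Enzymes on either side of these carriers make or use the same metabolites. Of 16 genes of metabolite shuttles and citrate metabolism, 4 were higher, Pcx, Me1 and Gpd1 among them, and 0 lower (8.75% and 4.40% of all genes). Their median log2 ratio was 0.50, and the intervals of 13 lay wholly above 1 (25.2% of all genes), a count that moves with depth. Acly, which splits the exported citrate into acetyl-CoA and oxaloacetate, had the most reads of the list over both libraries together, with 768 CPM in P2Y4 KO and 400 CPM in WT PAT. Its ratio of 1.92 (1.86 to 1.98) lay just under the limit. Me1, the malic enzyme that makes NADPH from malate, reached 3.21 (3.01 to 3.42), and Pcx, the pyruvate carboxylase that refills oxaloacetate in the matrix, 3.23 (3.07 to 3.41). Gpd1, which makes glycerol 3-phosphate, stood at 3.18 (3.07 to 3.30). Of the malate-aspartate shuttle, the malate dehydrogenases had ratios of 1.66 (1.59 to 1.74) for the cytosolic Mdh1 and 1.05 (1.02 to 1.09) for the mitochondrial Mdh2. Its transaminases had ratios of 1.08 (0.977 to 1.19) for Got1 and 0.972 (0.909 to 1.04) for Got2. The aspartate/glutamate carriers that complete the shuttle had ratios below 1. The 15 genes of other inner membrane carriers and channels and their regulators had a median log2 ratio of 0.13. Intervals lay wholly above 1 for 6 of them (25.2% of all genes) and wholly below 1 for 5 (23.5% of all genes). The pyruvate carrier subunits Mpc1 and Mpc2 had ratios of 1.81 (1.70 to 1.93) and 2.14 (1.98 to 2.31). Mpc2 was the 1 gene of the list called higher, and 0 were called lower (8.75% and 4.40% of all genes). At its low end, Mcu, the pore of the calcium uniporter, had a ratio of 0.567 (0.502 to 0.639) and the sideroflexin Sfxn3 one of 0.562 (0.522 to 0.606), while Sfxn1, a serine carrier with the most reads of the list over both libraries, stood at 1.27 (1.20 to 1.35).

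Slc25a20, which exchanges acylcarnitines for free carnitine and so admits long-chain fatty acids to beta-oxidation, had 77.6 CPM (1155 reads) in P2Y4 KO and 50.9 CPM (788 reads) in WT PAT. Its ratio of 1.53 (1.39 to 1.67) was the nearest to the limit of 2 from below. Of 7 genes of the carnitine route, 3 were higher and 0 lower (8.75% and 4.40% of all genes), at a median log2 ratio of 0.30. Cpt1b, the form of carnitine palmitoyltransferase 1 in muscle and brown fat, stood at 5.06 (3.92 to 6.62), Crat, the carnitine acetyltransferase, at 2.36 (2.20 to 2.54) and Cpt2, on the matrix side of the carrier, at 2.12 (1.92 to 2.35). Cpt1a, the liver form and the one with the most reads over both libraries together, had a ratio of 0.807 (0.762 to 0.855). These enzymes make the acylcarnitines that Slc25a20 carries, or take them apart. Cpt1b moved with the muscle and brown fat markers given above, whose part in its ratio was not tested.

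**Figure D2:**
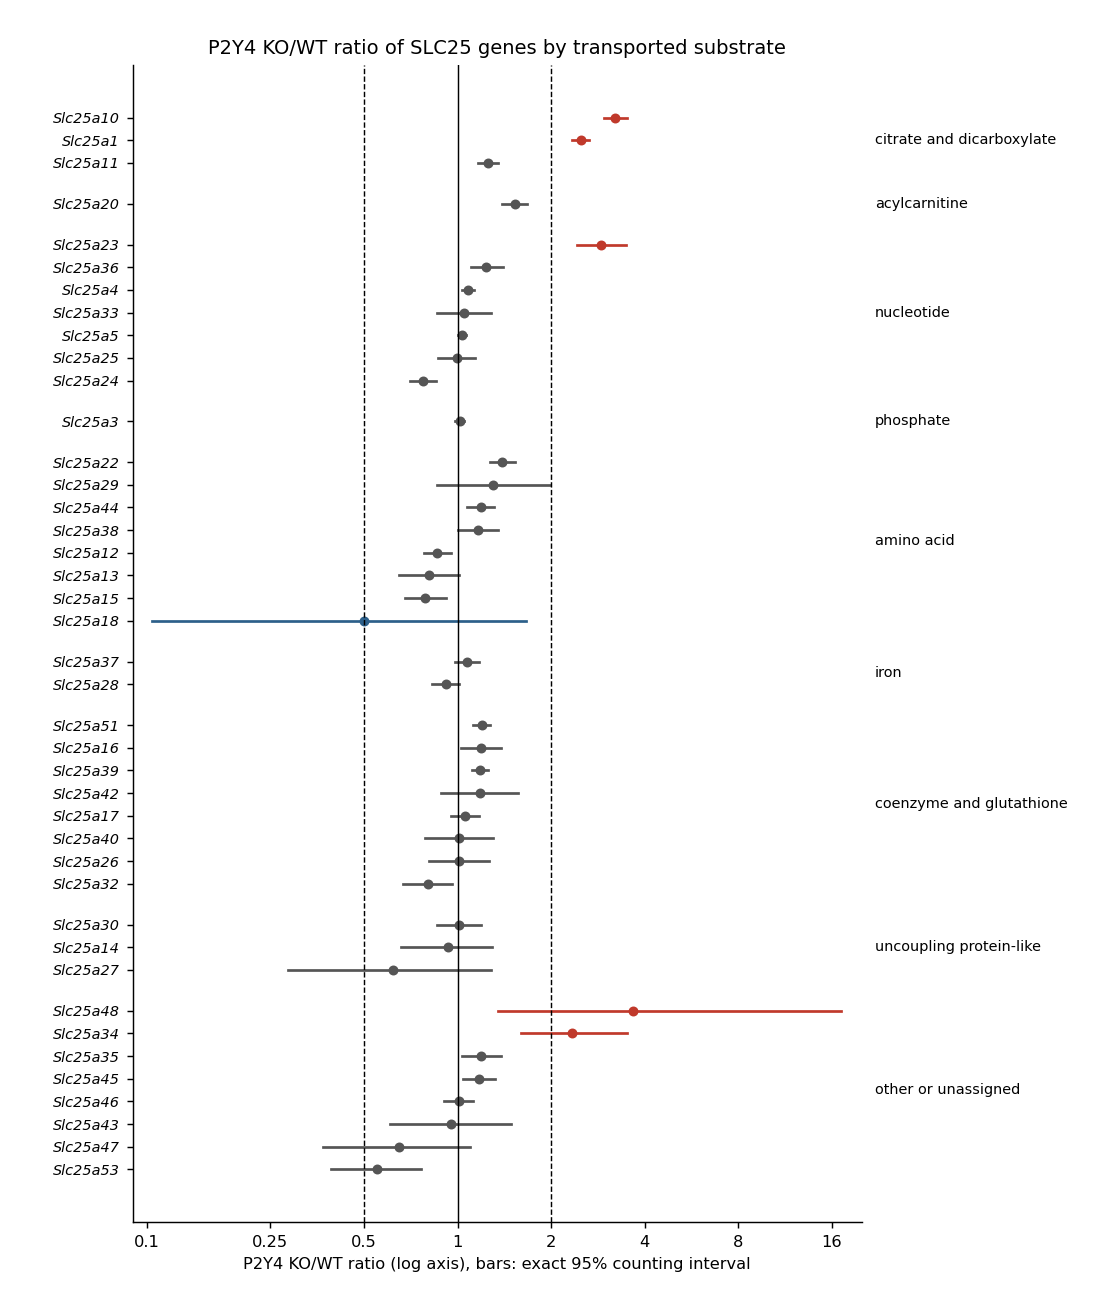
P2Y4 KO/WT ratio of 41 SLC25 genes past the CPM filter on a log axis, with exact 95% counting intervals, grouped by transported substrate. Dashed lines mark 0.5 and 2, with 5 higher genes in red and the lower one in blue. The intervals of Slc25a10, Slc25a1 and Slc25a23 lie wholly to the right of 2, and that of Slc25a18 spans 1.

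The nucleotide carriers held the largest share of the family's reads, 33.5% in P2Y4 KO and 37.5% in WT PAT. Of the 7 past the filter, 1 was higher and 0 lower (8.75% and 4.40% of all genes). Slc25a5 (ANT2), the widely expressed ADP/ATP carrier that delivers ATP to the cytosol, had the most reads of all members, at 536 CPM (7975 reads) in P2Y4 KO and 517 CPM (8025 reads) in WT PAT. Its ratio was 1.04 (1.004 to 1.07). Slc25a4 (ANT1), the form of heart and skeletal muscle, had 273 CPM (4065 reads) in P2Y4 KO and 253 CPM (3929 reads) in WT PAT, a ratio of 1.08 (1.03 to 1.13). Slc25a31 (ANT4), a form known from testis, had 1 read in P2Y4 KO and 4 in WT PAT and did not pass the filter. Slc25a4 took 33.8% of the reads of these 3 forms in P2Y4 KO PAT (32.9 to 34.6) and 32.9% in WT PAT (32.01 to 33.7), with an odds ratio of 1.04 (0.987 to 1.10, exact conditional). The balance of ANT forms thus did not differ beyond counting error between these libraries. Summed cardiomyocyte markers stood at 540 CPM in P2Y4 KO and 10.6 CPM in WT PAT, and their part in this balance or in the ratio of Slc25a4 was not tested. Slc25a5 has retrotransposed copies, of which Slc25a5-ps is listed with 1 read in each library, so that its level is less certain than its depth implies.

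Slc25a23 was the one called. It is among the carriers that exchange ATP-Mg for phosphate under the control of calcium, which sets the size of the adenine nucleotide pool in the matrix. Its gene (chromosome 17, 57043711 to 57059863, minus strand) stood at 30.7 CPM (456 reads) in P2Y4 KO and 10.6 CPM (164 reads) in WT PAT, a ratio of 2.89 (2.42 to 3.48). Its paralog Slc25a24 had 51.4 CPM in P2Y4 KO and 66.4 CPM in WT PAT, a ratio of 0.775 (0.704 to 0.851). Slc25a25, another paralog, had 27.8 CPM in P2Y4 KO and 27.95 CPM in WT PAT, a ratio of 0.993 (0.866 to 1.14). Of the reads of these 3 carriers, Slc25a23 held 27.9% in P2Y4 KO PAT (25.7 to 30.2) and 10.1% in WT PAT (8.66 to 11.7), an odds ratio of 3.45 (2.83 to 4.22). Exons of Gm17168 on the opposite strand cover 3.17% of the exon length of Slc25a23, and Gm17168 had 32 reads in P2Y4 KO and 15 in WT PAT. Among the paralog groups set side by side here, chosen after the values were seen, this was the largest shift in balance whose interval left out 1. The fourth gene of the group, Slc25a41, is not listed in the table. The pyrimidine nucleotide carriers Slc25a36 and Slc25a33 had ratios of 1.24 (1.10 to 1.40) and 1.05 (0.861 to 1.29).

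Slc25a3 imports the phosphate that ATP synthase joins to ADP. It had 416 CPM (6193 reads) in P2Y4 KO and 409 CPM (6350 reads) in WT PAT, a ratio of 1.02 (0.981 to 1.05). The 16 genes of ATP synthase and its inhibitor had a median log2 ratio of 0.28, and none was called higher or lower. Intervals lay wholly above 1 in 14 of them, against 25.2% of all genes. Each of the 16 had more reads than the median of 269 over all genes, and at such depth small shifts already leave 1 outside the interval. Atp5b, the catalytic beta subunit, stood at 1268 CPM in P2Y4 KO and 946 CPM in WT PAT (ratio 1.34, 1.31 to 1.37). The intervals of Slc25a3, Slc25a4 and Slc25a5 all ended below that of Atp5b. They overlapped those of other genes of the list, such as Atp5g1 (1.02 to 1.16), so that the separation does not hold for the whole list. Slc25a5, Slc25a3 and Slc25a4 together took 42.2% of the family's reads in P2Y4 KO PAT (41.7 to 42.7) and 48.0% in WT PAT (47.5 to 48.5). Per kb of exon, Slc25a5 had the highest level of the family in both libraries (325 CPM per kb in P2Y4 KO and 314 in WT PAT), followed by Slc25a4 (116 in P2Y4 KO and 108 in WT PAT). Slc25a1 ranked 3 in P2Y4 KO PAT with 99.7 CPM per kb and 5 in WT PAT with 40.1, next to Slc25a39 and Slc25a11. Slc25a10 ranked 7 in P2Y4 KO PAT and 12 in WT PAT. Exon length was merged over all annotated transcripts, which understates the level of genes with long rare forms.

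**Figure D3:**
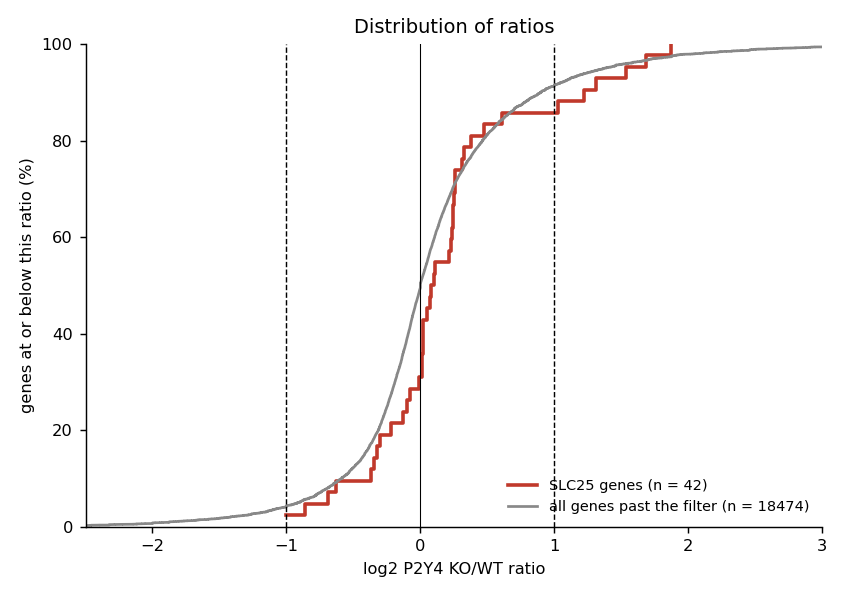
Cumulative share of genes against the log2 P2Y4 KO/WT ratio for the 42 SLC25 genes (red) and all 18474 genes past the filter (grey), with dashed lines at -1 and 1. The red curve is steeper around 0 and flat just above 0.61, the value of Slc25a20.

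Of 9 amino acid carriers, 8 passed the filter, 0 were higher and 1 was lower (8.75% and 4.40% of all genes), Slc25a18 with its few reads. Their median log2 ratio was 0.00. Slc25a22, the other glutamate carrier, had 68.8 CPM (1024 reads) in P2Y4 KO and 49.4 CPM (766 reads) in WT PAT, a ratio of 1.39 (1.27 to 1.53), and accounted for 99.6% of the reads of the pair in P2Y4 KO and 98.8% in WT PAT. Slc25a44, which admits branched-chain amino acids to brown fat mitochondria, had 59.2 CPM (880 reads) in P2Y4 KO and 49.9 CPM (773 reads) in WT PAT, a ratio of 1.19 (1.08 to 1.31). Of 8 genes of the breakdown of these amino acids and its control, 1 was higher (8.75% of all genes), the dehydrogenase subunit Bckdha at 2.22 (2.03 to 2.43). Dld, with the most reads over both libraries, stood at 1.28 (1.20 to 1.36). The list had a median log2 ratio of 0.39, with intervals wholly above 1 for 7 of the 8 genes (25.2% of all genes), a count that moves with depth. The aspartate/glutamate carriers of the malate-aspartate shuttle lay on the other side, with ratios of 0.861 (0.777 to 0.954) for Slc25a12 (aralar) and 0.811 (0.646 to 1.01) for Slc25a13 (citrin). Slc25a12 held 82.7% of the reads of this pair in P2Y4 KO and 81.8% in WT PAT. The ornithine carrier Slc25a15 had 21.1 CPM in P2Y4 KO and 26.8 CPM in WT PAT (ratio 0.787, 0.679 to 0.915). Slc25a38, the glycine carrier of heme synthesis, stood at 1.16 (1.001 to 1.35) and Slc25a29, for basic amino acids, at 1.30 (0.860 to 1.98), while Slc25a2 had 2 reads in P2Y4 KO and 1 in WT PAT.

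Neither iron carrier differed beyond counting error. Slc25a37 (mitoferrin 1), which serves heme synthesis in erythroid cells, had 68.4 CPM (1017 reads) in P2Y4 KO and 63.8 CPM (988 reads) in WT PAT, a ratio of 1.07 (0.982 to 1.17). Slc25a28 (mitoferrin 2), the form of other tissues, had 50.8 CPM (755 reads) in P2Y4 KO and 55.5 CPM (860 reads) in WT PAT, a ratio of 0.914 (0.828 to 1.01). The share of Slc25a37 in their reads was 57.4% in P2Y4 KO PAT (55.1 to 59.7) and 53.5% in WT PAT (51.2 to 55.8), an odds ratio of 1.17 (1.03 to 1.34). Erythroid markers, 7 in number, had ratios of 0.475 to 0.870, with Slc4a1 called lower and a summed level of 1619 CPM in P2Y4 KO and 1961 CPM in WT PAT. Of 11 genes of iron-sulfur cluster and heme synthesis, none was higher or lower (median log2 ratio 0.10). Alas2, the erythroid enzyme and the one with the most reads over both libraries together, had a ratio of 0.739 (0.694 to 0.786) and Alas1, its counterpart in other cells, 1.67 (1.57 to 1.79).

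All 9 carriers of coenzymes and glutathione passed the filter, with a median log2 ratio of 0.24. Slc25a39, a glutathione carrier with the most reads of the group, had 149.5 CPM in P2Y4 KO and 126 CPM in WT PAT (ratio 1.18, 1.11 to 1.26), and the NAD carrier Slc25a51 had 137 CPM in P2Y4 KO and 115 CPM in WT PAT (ratio 1.20, 1.12 to 1.27). Slc25a16 and Slc25a42, both linked to coenzyme A, stood at 1.19 (1.03 to 1.38) and 1.18 (0.882 to 1.56). Slc25a40, Slc25a26, the carrier of S-adenosylmethionine, and Slc25a17 of the peroxisome had ratios of 1.01 to 1.06 with intervals that include 1. Slc25a32, for folate and FAD, stood at 0.801 (0.665 to 0.962).

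The 3 members akin to uncoupling proteins all lay within a factor of 2, while of 5 family genes with other symbols 2 were higher, Ucp1 and Ucp3. Slc25a30, Slc25a14 and Slc25a27 had ratios of 1.01 (0.860 to 1.19), 0.931 (0.659 to 1.29) and 0.621 (0.285 to 1.28), the last on 13 reads in P2Y4 KO and 22 in WT PAT. Ucp1 itself had 210 CPM (3128 reads) in P2Y4 KO and 1.25 CPM (19 reads) in WT PAT, a ratio of 168 (110 to 285), and Ucp3, the form of muscle and brown fat, 3.52 (2.63 to 4.88). Ucp2, found in many cell types, had 440 CPM in P2Y4 KO and 434 CPM in WT PAT (ratio 1.02, 0.981 to 1.05). Mtch1 and Mtch2, relatives in the outer membrane, stood at 1.30 (1.23 to 1.38) and 1.33 (1.25 to 1.41).

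Among the other or unassigned members, Slc25a34 (chromosome 4, 141618824 to 141623821, minus strand) and Slc25a48 (chromosome 13, 56438355 to 56474239, plus strand) were higher at low levels. Slc25a34 had 5.95 CPM (88 reads) in P2Y4 KO and 2.55 CPM (39 reads) in WT PAT, a ratio of 2.33 (1.60 to 3.52), while its paralog Slc25a35, of whose exon length 31.3% is shared with Rangrf on the opposite strand, stood at 1.19 (1.03 to 1.38). Slc25a48 had 1.10 CPM (16 reads) in P2Y4 KO and 0.30 CPM (4 reads) in WT PAT, a ratio of 3.67 with a wide interval (1.34 to 17.1). At the other end, Slc25a53 had 3.85 CPM (57 reads) in P2Y4 KO and 7.00 CPM (108 reads) in WT PAT, a ratio of 0.550 (0.392 to 0.765) just inside the limit. Slc25a47, known from liver, had 24 reads in P2Y4 KO and 39 in WT PAT (0.647, 0.369 to 1.09). Slc25a46, which acts in the outer membrane in mitochondrial dynamics, stood at 1.01 (0.905 to 1.12), Slc25a45 at 1.17 (1.04 to 1.32) and Slc25a43 at 0.949 (0.606 to 1.48). Slc25a54 is not listed in the table.

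Counted by interval alone, 19 of the 42 members lay wholly above a ratio of 1 (45.2%, against 25.2% of all genes) and 5 wholly below it (11.9%, against 23.5%). These shares move with depth, and the members had a median of 434.5 reads in P2Y4 KO and 424 in WT PAT, against 269 over all genes in each library. The 5 below 1 were Slc25a12, Slc25a15, Slc25a24, Slc25a32 and Slc25a53. The 13 genes of the machinery that brings carriers into the inner membrane had a median log2 ratio of -0.08 and none was called. Its subunit with the most reads over both libraries together, the receptor Tomm20, with 128 CPM in P2Y4 KO and 150 CPM in WT PAT, had a ratio of 0.855 (0.805 to 0.909). The outer membrane channels Vdac1, Vdac2 and Vdac3, through which the same substrates pass, had ratios of 0.939 (0.894 to 0.987), 0.912 (0.868 to 0.957) and 1.002 (0.939 to 1.07). With the ribosomal protein genes scaled to a median ratio of 1, every log2 ratio shifts by 0.19. This exceeds the size of both medians, so that the import machinery and the channels then stand above 0, and Slc25a14, Slc25a25, Slc25a28 and Slc25a43 also change sides of 1. An upward shift leaves all 6 higher members past the limit by construction, and 11.4% of all genes were higher on that scale.

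**Figure D4:**
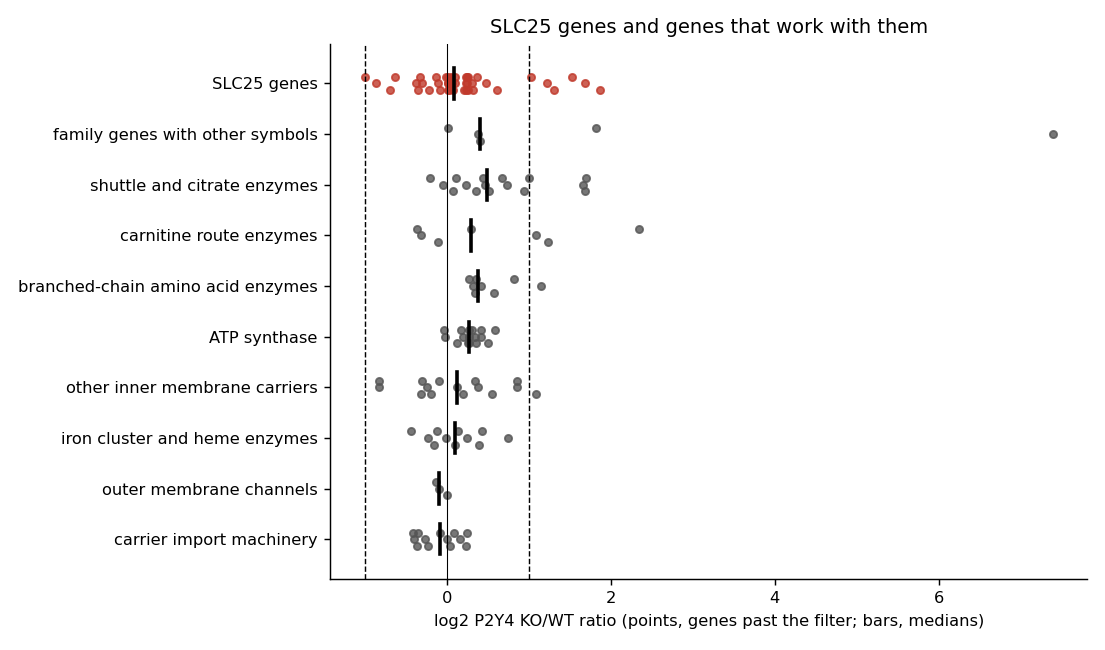
log2 P2Y4 KO/WT ratio of SLC25 genes (red) and of 9 lists of genes that work with them (grey), 1 point per gene past the filter, with black bars at the medians and dashed lines at -1 and 1. The point at the far right is Ucp1, and the medians run from 0.50 for shuttle and citrate enzymes to -0.09 for the outer membrane channels.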

How the data were processed

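RNA-seq of PAT was available for 1 pooled library per genotype, grouped by the genotype label. Per the methods of the study and the submitters' processing notes, reads were trimmed with Trimmomatic, mapped to GRCm38.p4 (mm10) with STAR and counted per gene with HTSeq on the Ensembl annotation. The library kit named in the methods is a stranded one. The sources used here give neither versions of these tools nor the strand setting of the counting. The deposited signal per gene is not a raw count. By its values, the authors scaled the reads to 20000000 per library and rounded up. Genes with no WT reads are not listed, so a member with reads in P2Y4 KO PAT alone is not analysed here. The authors' ratio column and their table of regulated genes were not used.

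The reads behind each value were recovered from the step, between 1.1 and 4, that gave the most whole reads beyond chance (1 read is worth 1.34 in P2Y4 KO and 1.29 in WT). Of the values, 99.8% in P2Y4 KO and 99.9% in WT equalled a whole number of reads times that step, rounded up, with no tolerance. The design had been written for CPM or counts. No count model was fitted, since neither genotype has a replicate. Ratios were quotients of the deposited values without a pseudocount, and their intervals were Clopper-Pearson, conditional on the reads of both libraries. Shares have exact binomial intervals. Step, reads and intervals were tested on simulated data. Positions, exon lengths and overlaps came from GENCODE M21 (GRCm38) and promoter windows from RefSeq (GRCm38.p6), where 35 of 45 members matched by symbol. Exons of another gene overlap those of 2 members on the same strand and 12 on the opposite strand. Python 3.11.15, numpy 2.4.6, pandas 2.3.3 and scipy 1.17.1 were used.

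The members and all gene lists were chosen with earlier results of these data known. Members are named by rule, and of each partner list the genes past the limits and the one with the most reads. A member and a partner gene are not reported here by name, though counts and medians include them. Further genes were picked after their values were seen. Alternatives were other filters, scalings and sets of members, 0.5 CPM added, recovered reads in place of deposited values, and the whole interval past the limit.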

Additional observations from a re-analysis of the deposited data

How the results depend on the processing

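The count of 6 higher members was the same with CPM above 1, under all scalings, with 0.5 CPM added and with recovered reads. The scalings shifted log2 ratios by -0.003 to 0.19, too little downward to take any of the 6 below the limit. The count was 5 with CPM above 0.5 in both libraries and 7 without a filter. Among the 32 members with at least 100 reads in both libraries, a set chosen after the data were seen, it was 4. It was 3 when the whole interval had to pass the limit (Slc25a1, Slc25a10, Slc25a23), and 3 among the 29 members whose exons overlap no other gene, a choice made after seeing the data that leaves out Slc25a10 and Slc25a23 among others. The 1 lower member, Slc25a18, rests on 4 and 9 reads and a ratio of exactly 0.5. The count was 2 without a filter, which adds Slc25a31, and 0 with CPM above 0.5 in both libraries, CPM above 1, the total without the 100 most abundant or without muscle genes, ribosomal protein genes at a ratio of 1, 0.5 CPM added, the whole interval, no exon overlap, or at least 100 reads in both libraries. The median log2 ratio of 0.09 became 0.28 with the 76 ribosomal protein genes at a median ratio of 1, where the median of all genes is 0.19 and 79.5% of the genes past the limits are higher, in place of 66.6%. Per kb of exon the share of Slc25a4 among ANT forms was 26.3% in P2Y4 KO and 25.5% in WT PAT. No paired analysis was possible because each genotype has 1 library.

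Intervals cover counting error only and say nothing of the spread between mice, dissections or library preparations. For members under 20 reads in both libraries (Slc25a2, Slc25a18, Slc25a21, Slc25a31, Slc25a48) the depth limits what can be said.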
